A study of Rattus norvegicus with 6 samples.

Results

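The Slc25 genes encode the mitochondrial carriers, the largest family of transporters of the inner mitochondrial membrane, and the transcripts of 43 of them, the uncoupling proteins Ucp1, Ucp2 and Ucp3 included, were measured here in the rat renal cortex. Members were the array probes whose transcript accession is paired with a symbol of the form Slc25a plus a number, or with Ucp1, Ucp2 or Ucp3, in a RefSeq gene table. They are 43 of 15645 named genes, with 86 probes, and 40 of them passed a filter on dim probes and entered the comparison. The study gave male Sprague-Dawley rats (Crl:CD(SD)), bought at 5 weeks of age, for 4 weeks either TBBC (thiobis(6-tert-butyl-m-cresol) in its 4,4' form, an antioxidant of 2 phenol rings joined by sulfur) at 300 mg/kg/day or corn oil, the vehicle. Each group holds 3 animals, with 1 one-colour Agilent array per animal, and the design text calls the replicates biological.

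The inner mitochondrial membrane lets few solutes through, and each carrier exchanges or imports particular ones. The ADP/ATP carriers send out the ATP that the matrix makes, the phosphate carrier brings in the phosphate for it, and other members carry dicarboxylates, citrate, amino acids, acylcarnitines, nucleotides, coenzymes and iron. Proximal tubule cells, the main cell type of the renal cortex, are rich in mitochondria and draw most of their energy from oxidative metabolism, including fatty acid oxidation.

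Levels below are log2 of the processed signal over the array's 75th percentile, so that 0 is the 75th percentile of all non-control probes. A level compares arrays for 1 probe and does not rank one gene against another, because probes differ in brightness. Where a gene had several tested probes, the brightest was used. A log2 fold change is the TBBC mean minus the vehicle mean, with its standard error (SE) from limma, and adjusted p-values are Benjamini-Hochberg values over all 32956 transcripts tested, with a threshold of 0.05.

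On the arrays, 67.1% to 70.9% of probes lay well above background. Vehicle 1 to 3 and TBBC 1 shared slide 1, and TBBC 2 and TBBC 3 were on slide 2, so that slide and treatment overlap in part. All 9 proximal tubule markers were well above background on every array, and their summed signal relative to the 75th percentile was 1080 to 1287 on TBBC arrays and 1355 to 1451 on vehicle arrays. Not every one of the 9 lay lower, as the log2 level of Slc22a8 was 8.10 and 8.15 in TBBC 2 and 3, against 7.84 to 8.07 on vehicle arrays. The sum of the 5 thick ascending limb markers, all detected, was 340.4, 137.4 and 204.4 in TBBC 1 to 3, against 382.8 to 438.5 on vehicle arrays. This sum mostly follows its brightest marker, Umod. Umod, Egf and Kcnj1 lay below vehicle on all treated arrays. In TBBC 1, however, Slc12a1 lay within its vehicle range and Cldn16 above it. No marker of either list passed the threshold, and the part of these shifts in the carriers' values was not tested. In a bulk sample, fewer cells of a type and less RNA per cell cannot be told apart.

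No carrier differed between TBBC and vehicle past the threshold. With limma, 0 of 40 members had an adjusted p under 0.05, where 0.531% of all transcripts did, and 6 of 40 (15%) had an unadjusted p under 0.05, against 20.0% of all transcripts. The fitted log2 fold changes ran from -0.92 for Slc25a47 to 0.98 for Slc25a27, and 0 members lay 2-fold or more apart. All 3 TBBC arrays lay above all vehicle arrays for 3 of 40 members (7.5%, against 13.1% of all transcripts), and below them for 8 of 40 (20%, against 15.2%). Of the 40, 18 had a TBBC mean above the vehicle mean and 22 below it, with a median log2 fold change of -0.05, where the median of all transcripts was -0.02.

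**Figure D1:**
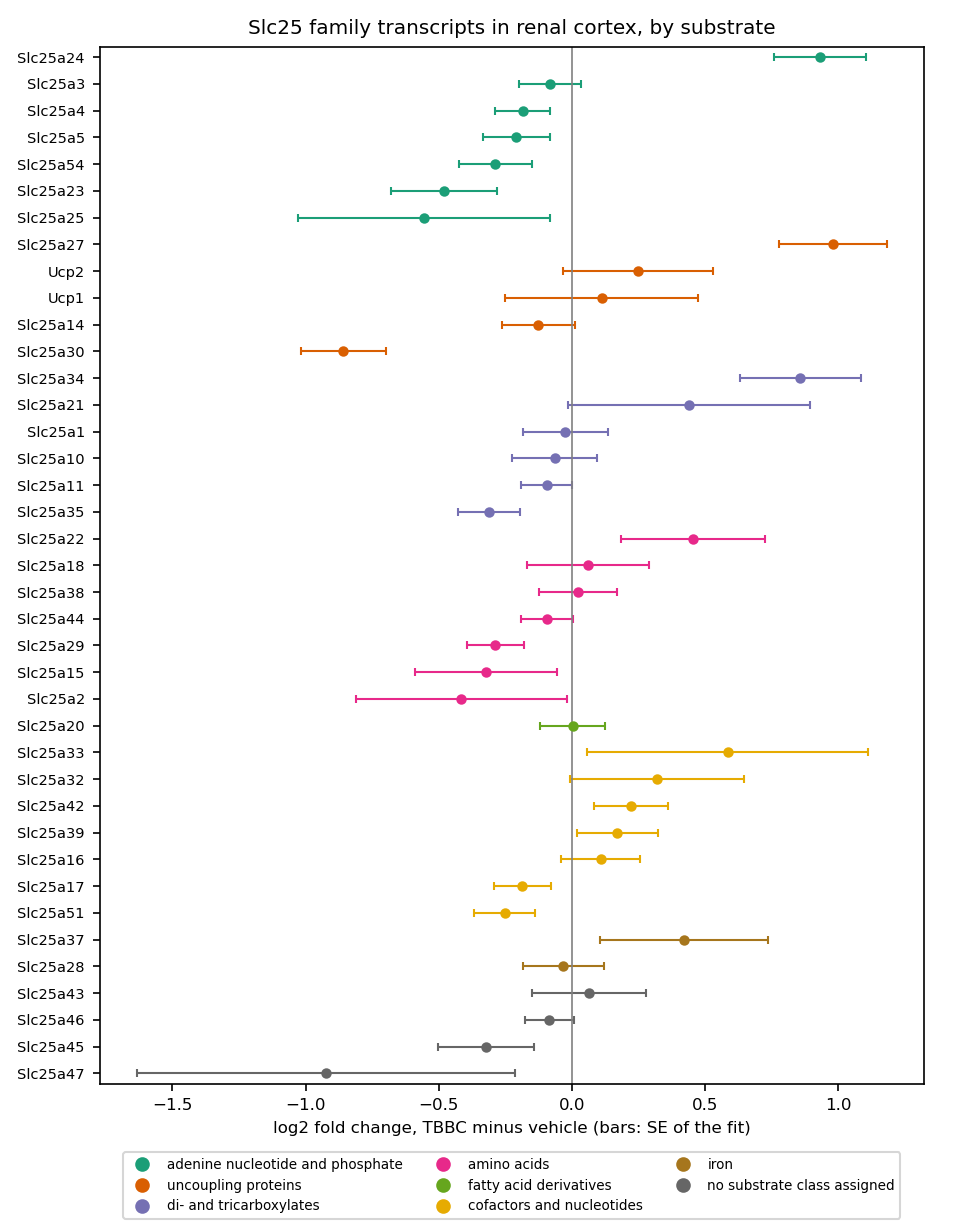
Log2 fold change, TBBC minus vehicle, of 39 of the 40 tested members (horizontal axis), grouped and coloured by substrate, with the SE of the fit as bars. Slc25a24, Slc25a27 and Slc25a34 lie farthest to the right, Slc25a30 and the widely varying Slc25a47 farthest to the left, and most members lie near 0.

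Carriers of adenine nucleotides and phosphate mostly had slightly lower group means in TBBC, with Slc25a24 on the other side. Of 8 members with a probe, 7 were tested. Of these, 1 had a TBBC mean above the vehicle mean and 6 below, and their median log2 fold change was -0.21. The array medians were -0.22, -0.03 and -0.22 in TBBC 1 to 3, where 6, 4 and 6 of the 7 lay below the vehicle mean. Only Slc25a24 had an unadjusted p under 0.05 (limma). Slc25a24 is an ATP-Mg/phosphate carrier, of a calcium-regulated kind that sets the adenine nucleotide content of the matrix. It was at 0.38, 0.50 and 0.96 in TBBC 1 to 3, against -0.37, -0.22 and -0.37 in vehicle 1 to 3. The groups did not overlap, and TBBC 3 was the highest. The log2 fold change was 0.93 ± 0.17 (SE, n = 3 each), or 1.91-fold, with an adjusted p of 0.0756 (limma). This p fell below the threshold in 2 of 22 alternative analyses, at 0.0408 with a trended and robust variance estimate and at 0.0450 with normexp background correction of the median signal followed by quantile scaling (0.0778 with quantile scaling alone), and on the shared slide, with TBBC 1 as the only treated array, the log2 fold change was 0.70 (adjusted p 0.110). A second Slc25a24 probe was too dim to be tested and differed by 0.33.

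The other ATP-Mg/phosphate carriers lay below vehicle on average. Slc25a23 was at -2.26, -1.62 and -2.00 in TBBC 1 to 3 and at -1.48, -1.27 and -1.70 in vehicle 1 to 3, for a difference of -0.48 ± 0.20 (adjusted p 0.253). Its groups overlapped, since TBBC 2 lay above vehicle 3. Slc25a54, placed with these carriers by sequence alone, was at -4.39, -4.12 and -3.96 in TBBC 1 to 3 and at -3.83, -3.89 and -3.89 in vehicle 1 to 3, without overlap, and its log2 fold change was -0.29 ± 0.14 (adjusted p 0.306). Slc25a41, the remaining carrier of this kind, was not well above background on any array.

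Slc25a25, a calcium-binding ATP-Mg/phosphate carrier, was spread more widely among treated animals than most members. Its level was 5.09, 6.87 and 5.16 in TBBC 1 to 3, against 6.22, 6.25 and 6.31 in vehicle 1 to 3. Thus TBBC 1 and TBBC 3 lay more than 1 log2 unit below every vehicle array, while TBBC 2 lay above them all. The log2 fold change was -0.56 ± 0.47 (adjusted p 0.561), with a 95% interval of -1.70 to 0.59. Without TBBC 2 it was -1.14 with an adjusted p of 0.0492 (limma), past the threshold, and on the shared slide it was -1.17 (adjusted p 0.0506). A second, dimmer probe of Slc25a25 repeated this order, at -2.00, 0.00 and -1.94 in TBBC 1 to 3 and at -0.81, -0.73 and -0.55 in vehicle 1 to 3.

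Slc25a33, which carries pyrimidine nucleotides into mitochondria, also stood highest in TBBC 2. It was at -0.88, 0.79 and -0.96 in TBBC 1 to 3 and at -0.63, -0.61 and -1.57 in vehicle 1 to 3. Only TBBC 2 lay outside the vehicle range. The log2 fold change was 0.59 ± 0.53 (adjusted p 0.584), and without TBBC 2 it was 0.02. Both other tested probes of Slc25a33 were likewise highest in TBBC 2. TBBC 2 was the highest treated array for 17 of the 40 tested members and the lowest for 14. The promoters of Slc25a25 and Slc25a33 are shown because these 2 are among the 17 and share the cAMP response element TGACGTCA. This is a site for CREB and ATF factors, and its part in the values was not tested. The 2 promoters run from 250 bases before the transcript start to 50 bases after it (RefSeq, GRCr8). Both are from the minus strand, at chr3:36116532-36116831 for Slc25a25 and chr5:165502924-165503223 for Slc25a33. Capitals mark the cAMP response element and, in Slc25a25 only, an antioxidant response element (TGACNNNGC).
Slc25a25: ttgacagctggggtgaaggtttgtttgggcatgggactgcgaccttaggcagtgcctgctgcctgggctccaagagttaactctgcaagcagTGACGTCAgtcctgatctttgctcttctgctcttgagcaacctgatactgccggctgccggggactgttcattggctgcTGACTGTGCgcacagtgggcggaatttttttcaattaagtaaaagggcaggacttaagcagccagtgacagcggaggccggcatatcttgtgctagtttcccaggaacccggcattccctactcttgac
Slc25a33: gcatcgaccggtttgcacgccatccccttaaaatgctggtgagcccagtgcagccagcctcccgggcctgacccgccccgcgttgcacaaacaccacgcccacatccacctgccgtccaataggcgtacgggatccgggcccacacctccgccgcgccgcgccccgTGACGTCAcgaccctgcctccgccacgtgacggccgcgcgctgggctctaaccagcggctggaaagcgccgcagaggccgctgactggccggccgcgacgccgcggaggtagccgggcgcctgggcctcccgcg

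The cAMP response element begins 158 bases before the transcript start of Slc25a25 and 84 bases before that of Slc25a33. It was added to the search after the Slc25a25 promoter had been read, so the count of members includes the promoter that prompted it. All other members highest in TBBC 2 among treated arrays that had a promoter sequence, Slc25a21 and Slc25a22 among them, held no match of it. On either strand, the cAMP response element was found in the promoters of 2 of 38 member genes with a promoter sequence. It was in 1.83% of 33469 promoters of the whole table. The antioxidant response element, the site that Nrf2 binds, was found for 3 of 38 genes (Slc25a25, Slc25a3 and Slc25a43), and in 12.1% of all promoters. The C/EBP-ATF element TGATGNAA was in 3.98% of all promoters, the ERR element TCAAGGTCA in 0.43% and the NRF1 element in 0.85%, and 0 of 38 member genes held any of these 3. The motifs overlap neither each other nor themselves in the printed promoters. A match is a stretch of letters, and binding was not measured.

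The ADP/ATP carriers and the phosphate carrier, which serve ATP synthesis directly, had differences of at most 0.26 log2 units on any tested probe. Slc25a4, the ADP/ATP carrier of heart and muscle, was at 5.50, 5.40 and 5.40 in TBBC 1 to 3 and at 5.72, 5.53 and 5.59 in vehicle 1 to 3. The groups did not overlap, and TBBC minus vehicle was -0.18 ± 0.10 log2 units (adjusted p 0.378), with a 95% interval of -0.43 to 0.07. Its 3 tested probes differed by -0.18 to -0.26. Slc25a5, the ADP/ATP carrier of most other tissues, was at 6.53, 6.72 and 6.39 in TBBC 1 to 3 and at 6.85, 6.71 and 6.71 in vehicle 1 to 3, with overlap through TBBC 2. Its log2 fold change was -0.21 ± 0.12 (adjusted p 0.407), and its 4 probes differed by -0.15 to -0.23. The gene table lists 9 pseudogenes and 1 like gene of Slc25a5, so its probes may also read near-identical copies. Slc25a3, the phosphate carrier, was at 6.92, 7.14 and 7.03 in TBBC 1 to 3 and at 7.22, 7.14 and 6.98 in vehicle 1 to 3. Its groups overlapped, and its log2 fold change was -0.08 ± 0.12 with a 95% interval of -0.37 to 0.20.

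Among the uncoupling proteins and their relatives, Slc25a30 lay below vehicle and Slc25a27 above it, neither past the threshold. Of 6 members, 5 were tested, with a median log2 fold change of 0.11. Slc25a30, the kidney mitochondrial carrier, is a close relative of the uncoupling proteins. It was at 2.50, 2.11 and 2.47 in TBBC 1 to 3, against 3.05, 3.18 and 3.42 in vehicle 1 to 3. Every TBBC array lay below every vehicle array, and the log2 fold change was -0.86 ± 0.16, or 1.81-fold, with an adjusted p of 0.0756 (limma). A second probe differed by -0.80. The adjusted p was 0.0366 with a trended and robust variance estimate and above 0.05 in the other 21 alternatives, and on the shared slide the log2 fold change was -0.72 (adjusted p 0.160).

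Slc25a27, uncoupling protein 4, is known mainly from brain. It was dim, at -4.08, -4.55 and -4.69 in TBBC 1 to 3 and at -5.19, -5.64 and -5.43 in vehicle 1 to 3, but well above background on all arrays. The groups did not overlap, and the log2 fold change was 0.98 ± 0.20, or 1.97-fold (adjusted p 0.0878). The value was 0.40 with normexp background correction of the median signal followed by quantile scaling, 1.02 with quantile scaling alone, and 1.34 (adjusted p 0.103) on the shared slide, where TBBC 1 is the only treated array. The second probe differed by 0.48. Slc25a14, brain mitochondrial carrier 1, was at 0.55, 0.21 and 0.61 in TBBC 1 to 3 and at 0.62, 0.61 and 0.52 in vehicle 1 to 3, and its groups overlapped (log2 fold change -0.13 ± 0.14).

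Ucp2, which exports C4 metabolites and is abundant in immune cells, was at -0.54, -0.61 and 0.31 in TBBC 1 to 3 and at -0.83, -0.36 and -0.40 in vehicle 1 to 3. TBBC 3 alone lay above the vehicle range. The log2 fold change was 0.25 ± 0.28 (adjusted p 0.672), and without TBBC 3 it was -0.05. The 6 myeloid markers all had a probe, 5 were well above background on every array, and none was below it on all arrays. Their summed signal was 73.8, 89.3 and 178.2 in TBBC 1 to 3, against 83.7 to 101.4 on vehicle arrays, so TBBC 3 was highest in both measures, and the part of myeloid cells in the Ucp2 value was not tested. Ucp1, the uncoupling protein of brown fat, was dim at -4.47, -5.61 and -4.63 in TBBC 1 to 3 and at -5.53, -4.83 and -4.69 in vehicle 1 to 3. It overlapped between groups and was well above background on 2 TBBC and 3 vehicle arrays. Of 5 adipocyte markers with a probe, 4 were well above background on every array and Lep on none, and their sum was 1.81, 1.60 and 4.01 in TBBC 1 to 3, against 1.93 to 2.24 on vehicle arrays. In TBBC 3 the high sum came with Cfd, at 1.04 against -2.78 to -2.47 on vehicle arrays. Fabp4, at -2.745 against -3.488 to -3.015, and Cidea, at -0.244 against -0.672 to -0.331, also lay above all vehicle arrays. Adipoq, at -0.07, lay within its vehicle range of -0.20 to 0.35. Ucp3, the muscle form, was not well above background on any array.

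**Figure D2:**
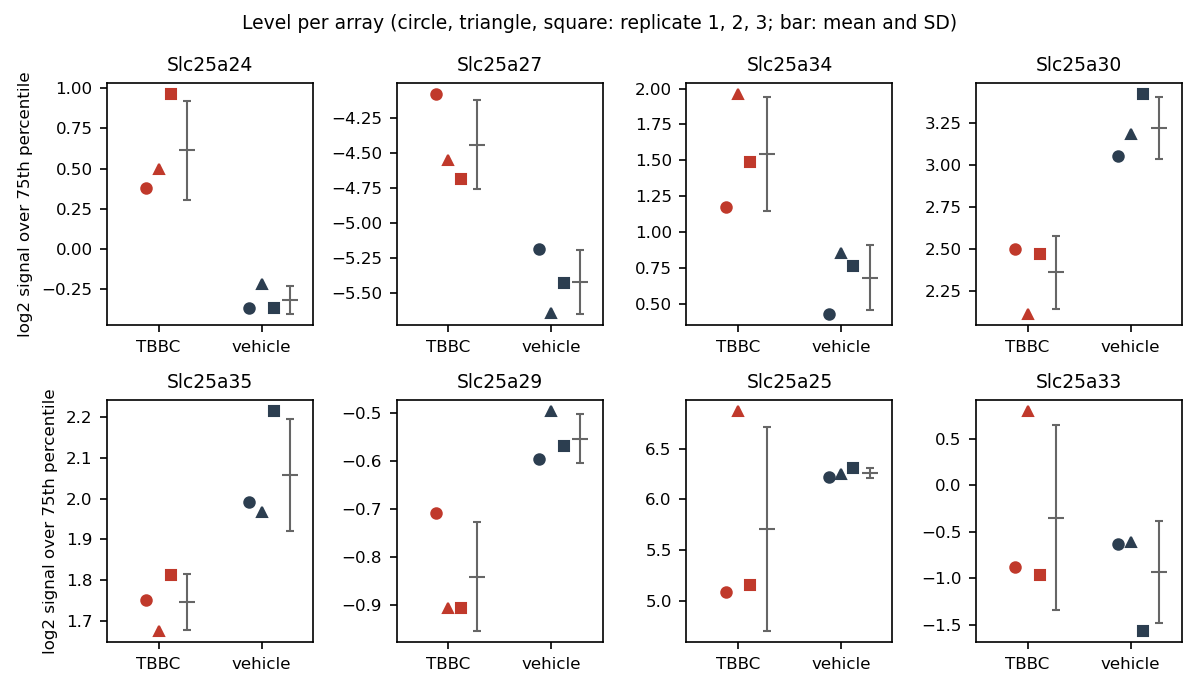
Level of 8 members on each array (vertical axes: log2 processed signal over the 75th percentile, each panel on its own scale), TBBC left and vehicle right, with circle, triangle and square for replicates 1, 2 and 3 and bars for the mean and SD. The groups stand apart for the first 6 genes, while Slc25a25 and Slc25a33 have TBBC 2 above the other treated arrays.

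The carriers of di- and tricarboxylates, which connect the citrate cycle with the cytosol, had a median log2 fold change of -0.05 over 6 tested members, 2 of them above and 4 below vehicle. The leading one, Slc25a34, has no settled substrate and is placed here by its likeness to the dicarboxylate carriers. It was at 1.17, 1.96 and 1.49 in TBBC 1 to 3, against 0.43, 0.85 and 0.77 in vehicle 1 to 3, without overlap. The log2 fold change was 0.86 ± 0.23, or 1.81-fold (adjusted p 0.129), the second probe differed by 0.70, and the value on the shared slide was 0.49 (adjusted p 0.290). Its close relative Slc25a35 lay the other way, at 1.75, 1.67 and 1.81 in TBBC 1 to 3 and at 1.99, 1.97 and 2.21 in vehicle 1 to 3, again without overlap. The log2 fold change of Slc25a35 was -0.31 ± 0.11 (adjusted p 0.209).

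Slc25a10, Slc25a11 and Slc25a1 had differences of at most 0.10 log2 units. Slc25a10, the dicarboxylate carrier for malate and succinate, was at 5.10, 5.46 and 4.92 in TBBC 1 to 3 and at 5.14, 5.20 and 5.33 in vehicle 1 to 3. Its groups overlapped, and its log2 fold change was -0.06 ± 0.16. Slc25a11, the 2-oxoglutarate carrier of the malate-aspartate shuttle, differed by -0.10 ± 0.10 (95% interval -0.33 to 0.14) and the citrate carrier Slc25a1 by -0.03 ± 0.16 (-0.41 to 0.36). Slc25a21, the oxodicarboxylate carrier of lysine and tryptophan breakdown, varied more, at -2.46, -1.95 and -3.72 in TBBC 1 to 3 and at -3.47, -3.13 and -2.85 in vehicle 1 to 3. TBBC 1 and TBBC 2 lay above and TBBC 3 below all vehicle arrays, for a log2 fold change of 0.44 ± 0.45.

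Amino acid carriers had a median log2 fold change of -0.09 over 7 members, 3 above and 4 below vehicle. Slc25a22 and Slc25a18 import glutamate. Slc25a22 was at 1.94, 2.77 and 1.77 in TBBC 1 to 3 and at 1.58, 1.69 and 1.84 in vehicle 1 to 3. The groups overlapped and TBBC 2 stood highest, for a log2 fold change of 0.46 ± 0.27 (adjusted p 0.401), and 0.15 without that array. Slc25a18 was dim, at -4.57, -4.97 and -4.10 in TBBC 1 to 3 and at -4.43, -4.67 and -4.72 in vehicle 1 to 3, and overlapped (log2 fold change 0.06 ± 0.23).

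The ornithine carriers Slc25a15 and Slc25a2 link the urea cycle enzymes of matrix and cytosol. Slc25a15 was at 2.26, 1.20 and 1.54 in TBBC 1 to 3, against a narrow 2.04, 1.93 and 2.00 in vehicle 1 to 3. TBBC 1 lay above and the other treated arrays below that range, so that the log2 fold change of -0.32 ± 0.27 (adjusted p 0.549) was -0.62 without TBBC 1 and 0.27 on the shared slide. Slc25a2 was at -4.38, -6.02 and -5.44 in TBBC 1 to 3 and at -4.82, -4.80 and -4.97 in vehicle 1 to 3, and was well above background on 2 of 3 TBBC arrays. Its treated arrays were placed around vehicle in the same way, with a log2 fold change of -0.42 ± 0.40 and 0.49 on the shared slide.

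Slc25a29, a carrier of basic amino acids, was at -0.71, -0.91 and -0.91 in TBBC 1 to 3 and at -0.59, -0.50 and -0.57 in vehicle 1 to 3. The groups did not overlap, and the means differed by -0.29 ± 0.11 (adjusted p 0.212). Slc25a44, the branched-chain amino acid carrier, was at 2.92, 2.85 and 3.02 in TBBC 1 to 3 and at 3.05, 3.02 and 3.01 in vehicle 1 to 3. It differed by -0.09 ± 0.10, and its 2 dimmer probes by 0.01 each. Slc25a38, which imports glycine for heme synthesis, differed by 0.02 ± 0.15.

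Carriers of cofactors and nucleotides had mostly higher group means in TBBC, with a median log2 fold change of 0.20, 6 members above and 2 below. This held for single animals only in part, with array medians of 0.04, 0.41 and -0.09 in TBBC 1 to 3, and all 8 members lay below the vehicle mean in TBBC 3. None of the 8 had an unadjusted p under 0.05. The highest value was that of Slc25a33, given above. Slc25a32, a carrier of folate or FAD, was at -0.92, 0.11 and -1.07 in TBBC 1 to 3 and at -1.20, -0.87 and -0.76 in vehicle 1 to 3. Only TBBC 2 lay outside the vehicle range, and the log2 fold change of 0.32 ± 0.33 was -0.05 without it. Slc25a39, needed for mitochondrial glutathione import, was at 4.65, 4.33 and 4.12 in TBBC 1 to 3 and at 4.18, 4.19 and 4.22 in vehicle 1 to 3. TBBC 1 and TBBC 2 lay above that narrow range and TBBC 3 below it, for a log2 fold change of 0.17 ± 0.15 (adjusted p 0.577), and the gene table lists 8 pseudogenes of it.

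The coenzyme A carrier Slc25a42 differed by 0.22 ± 0.14 and Slc25a16, linked to coenzyme A, by 0.11 ± 0.15, but each had a dimmer probe of the opposite sign (-0.07 for Slc25a42 and -0.09 for Slc25a16). The third Slc25a16 probe differed by 0.13. Slc25a51, the mitochondrial NAD carrier, lay below vehicle on every treated array, at 3.61, 3.60 and 3.83 in TBBC 1 to 3 and at 3.90, 3.88 and 4.03 in vehicle 1 to 3. Its log2 fold change was -0.25 ± 0.11 (adjusted p 0.286), and its 5 probes were all negative, from -0.25 to -0.03. The peroxisomal carrier Slc25a17 also lay below without overlap, for a log2 fold change of -0.19 ± 0.11 (adjusted p 0.389).

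Of the iron carriers, Slc25a37 (mitoferrin 1, the form of red cell precursors) was at -1.65, -0.58 and -1.71 in TBBC 1 to 3 and at -1.56, -1.83 and -1.81 in vehicle 1 to 3. Only TBBC 2 lay outside the vehicle range, for a log2 fold change of 0.42 ± 0.32 (adjusted p 0.506) and 0.05 without that array. Of 5 red cell markers, the 4 with a probe were well above background on every array, and their sum was 552.2, 646.5 and 349.9 in TBBC 1 to 3, against 550.4 to 609.9 on vehicle arrays; their part in the Slc25a37 value was not tested. Slc25a28 (mitoferrin 2, the form of other tissues) was at 4.15, 4.19 and 3.80 in TBBC 1 to 3 and at 4.25, 4.04 and 3.94 in vehicle 1 to 3, overlapping, with a log2 fold change of -0.03 ± 0.15. Slc25a20, the carnitine/acylcarnitine carrier that admits fatty acids to oxidation, was at 3.21, 3.44 and 3.19 in TBBC 1 to 3 and at 3.15, 3.30 and 3.37 in vehicle 1 to 3. Its group means differed by 0.00 ± 0.12, with a 95% interval of -0.29 to 0.30.

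Members without a substrate class were 5, of which 4 were tested, with a median log2 fold change of -0.20. Slc25a47, known from liver, was dim and varied in both groups, at -4.82, -6.76 and -4.47 in TBBC 1 to 3 and at -3.56, -5.35 and -4.37 in vehicle 1 to 3. Its log2 fold change of -0.92 ± 0.71 had a 95% interval of -2.64 to 0.79. Slc25a45 was at -0.29, -0.34 and -0.66 in TBBC 1 to 3 and at 0.16, -0.10 and -0.37 in vehicle 1 to 3, overlapping (log2 fold change -0.32 ± 0.18). Slc25a46, an outer membrane protein of mitochondrial dynamics, was at 3.02, 3.00 and 2.94 in TBBC 1 to 3 and at 3.07, 3.06 and 3.08 in vehicle 1 to 3. Its groups stood apart by little, with a log2 fold change of -0.08 ± 0.09. Slc25a43 differed by 0.07 ± 0.21. Slc25a53 was well above background on 1 TBBC array only and was not tested.

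Across the family, treated arrays differed from one another more than vehicle arrays did. The vehicle arrays shared slide 1, while the TBBC arrays lay on slides 1 and 2. Animal and slide therefore cannot be told apart between TBBC 1 and TBBC 2 or TBBC 3, while TBBC 2 and TBBC 3 shared slide 2. The part of slide in this spread was not tested. The SD among TBBC arrays was larger than that among vehicle arrays for 35 of 40 members (87.5%), where the share was 74.3% of all transcripts. By a limit of 0.5 log2 units chosen after the values were seen, and over the 37 members well above background on every array, TBBC 2 stood apart from both other treated arrays for 6 members (16.2%, against 9.86% of the 30972 transcripts so detected). It was above them for all 6, which are Slc25a21, Slc25a22, Slc25a25, Slc25a32, Slc25a33 and Slc25a37. That filter drops members that are dim in TBBC 2. Over all 40 tested members, TBBC 2 stood above for the same 6 and below for 3 (Slc25a2, Slc25a47 and Ucp1). This was 22.5% of members, against 11.4% of all transcripts, of which 1341 were above and 2423 below. Among the 37 members, TBBC 1 stood apart for 1 member (2.70%, against 7.41%), and TBBC 3 for 3 members (8.11%, against 10.1%). Among all 40, the shares were 5% for TBBC 1 (against 8.64%) and 7.5% for TBBC 3 (against 11.1%). Members are not independent of one another, and these shares describe the 3 treated arrays.

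**Figure D3:**
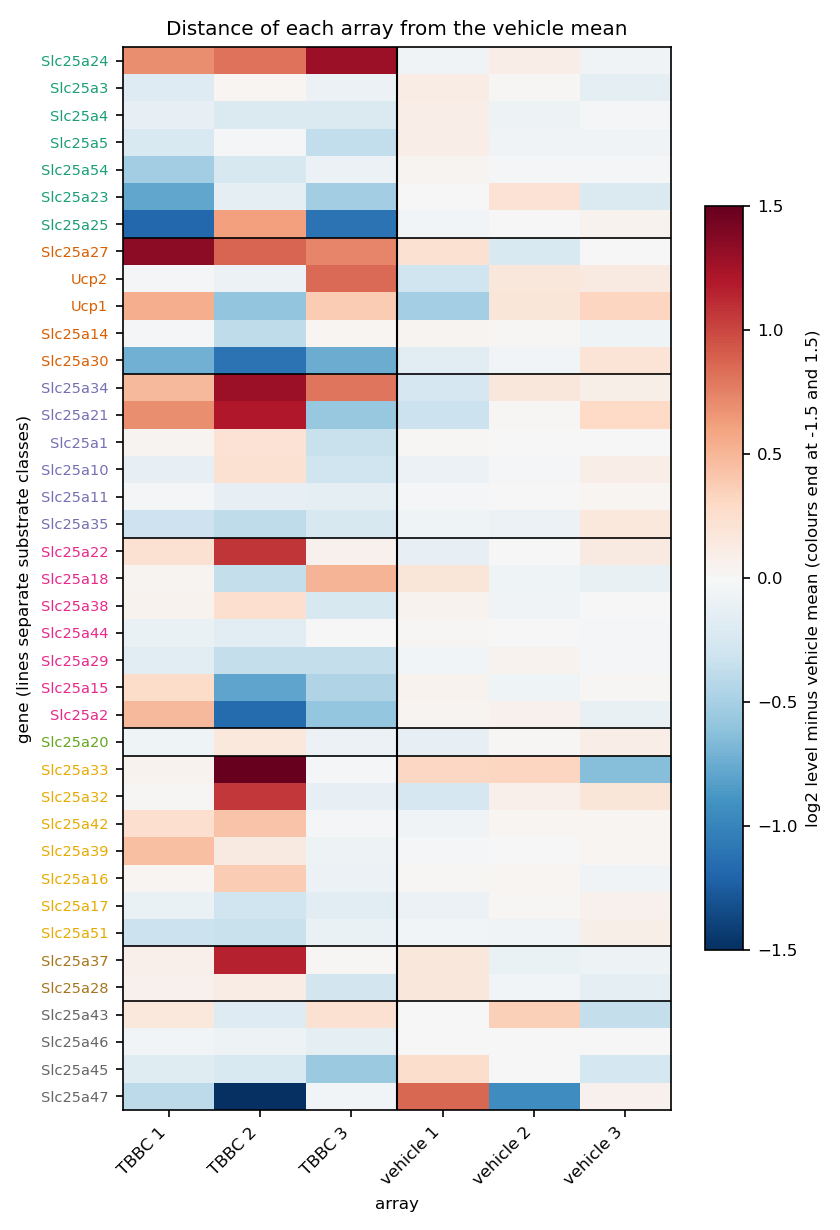
Distance of each array from the vehicle mean for 39 of the 40 tested members (colour: log2 level minus vehicle mean, ending at -1.5 and 1.5), with TBBC 1 to 3 left of vehicle 1 to 3 and lines between substrate classes. Slc25a24, Slc25a27 and Slc25a34 are red and Slc25a30 blue in all 3 treated animals, while the deep red cells of Slc25a33, Slc25a32, Slc25a22 and Slc25a37 are in TBBC 2 alone.

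Genes that work beside the carriers were read from the same fit in 10 lists, and 2 genes of these lists passed the threshold. Both are mitochondrial one-carbon enzymes, which use the folate that Slc25a32 carries. Mthfd1l, which releases formate, was at -2.42, -2.12 and -3.11 in TBBC 1 to 3, against -4.60, -4.69 and -4.56 in vehicle 1 to 3, and rose by 2.07 ± 0.25 log2 units (4.19-fold, limma adjusted p 0.0384). Aldh1l2, the mitochondrial formyltetrahydrofolate dehydrogenase, was at -2.71, -2.84 and -2.79 in TBBC 1 to 3, against -3.78, -3.72 and -3.54 in vehicle 1 to 3, and rose by 0.90 ± 0.11 log2 units (1.87-fold, adjusted p 0.0388). In both genes the groups stood well apart. Of the 11 tested genes for one-carbon units, NADPH, heme and iron-sulfur clusters, 2 passed higher and 0 lower, where 0.531% of all transcripts passed. The median log2 fold change of the 11 was 0.24. Without overlap, 5 of the 11 lay higher and 3 lower, against 13.1% and 15.2% of all transcripts. The list was chosen with earlier results of these data known, so the counts describe these genes and are no test of the list.

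In the other 9 lists, limma called 0 of 101 genes, and 24 (23.8%) had an unadjusted p under 0.05, near the 20.0% of all transcripts. Of 17 other mitochondrial transport proteins tested, the subunits of the pyruvate carrier, which does not belong to the Slc25 family, had the smallest adjusted p-values. Mpc1 was at 6.62, 6.59 and 6.43 in TBBC 1 to 3, against 7.40, 7.19 and 7.05 in vehicle 1 to 3 (log2 fold change -0.67 ± 0.13, adjusted p 0.0820). Mpc2 was at 6.91, 6.90 and 6.75 in TBBC 1 to 3, against 7.32, 7.35 and 7.38 in vehicle 1 to 3 (-0.49 ± 0.10, adjusted p 0.0862). Both subunits lay below vehicle without overlap. Citrate cycle enzymes had a TBBC mean below the vehicle mean for 17 of 18 genes, where 17619 of all 32956 transcripts did. Of the 18, 9 lay lower without overlap, against 15.2% of all transcripts. Their median was -0.19, and Idh3b, a subunit of the NAD-linked isocitrate dehydrogenase, was at -0.38 ± 0.10 (limma adjusted p 0.130).

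Of 8 tested enzymes of the urea cycle and arginine metabolism, the partners of the ornithine carriers, 3 lay above and 5 below vehicle, with a median of -0.55. Ass1, which joins citrulline and aspartate, was at 5.96, 5.97 and 5.79 in TBBC 1 to 3 and at 6.46, 6.45 and 6.34 in vehicle 1 to 3, without overlap (log2 fold change -0.51 ± 0.11, adjusted p 0.0888). The medians of the remaining lists were -0.12 for 4 malate-aspartate shuttle enzymes, -0.14 for 12 enzymes of acylcarnitine and fatty acid oxidation, -0.02 for 4 outer membrane proteins, 0.04 for 11 genes of carrier import, -0.14 for 17 genes of ATP synthase and ATP handling, and -0.03 for 11 regulators of mitochondrial biogenesis.

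**Figure D4:**
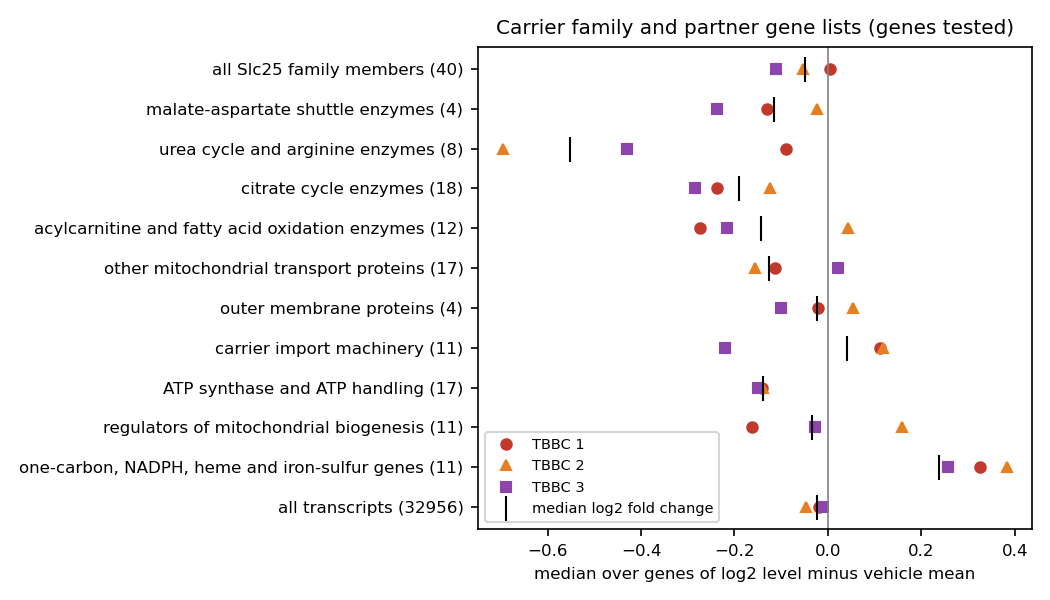
Median, over the tested genes of each list, of the log2 level minus the vehicle mean (horizontal axis) in TBBC 1, 2 and 3, with a black bar for the median log2 fold change and the number of genes tested in brackets. The carriers lie between -0.11 and 0.01. The citrate cycle enzymes are left of 0 in all 3 treated animals. The median of the one-carbon, NADPH, heme and iron-sulfur list is right of 0 in all 3.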

How the data were processed

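Renal cortex of 3 TBBC-treated and 3 vehicle-treated rats was profiled on 1-colour (Cy3) Agilent arrays. The authors deposited spot intensity values from Feature Extraction, Agilent's scanner program (version 10.7.1.1 in the file headers and 10.7 in the submitters' processing notes), background-subtracted within arrays and not scaled between them. The authors also deposited a value table, a linear ratio of that signal to nearly its 75th percentile per array (column medians 0.113, 0.107 and 0.114 for TBBC 1 to 3, and 0.111, 0.112 and 0.113 for vehicle 1 to 3), with no log and no centring, as set against the scanner values.

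Of 62976 spots, 1439 control spots were left out. Accessions were matched to a RefSeq gene table (GRCr8), naming 28206 of 61537 probes. The headers name another build (rn4), so coordinates are given only for the RefSeq promoters. Each array's signals were scaled by their 75th percentile (861.2 to 982.4 on TBBC arrays and 994.5 to 1038.0 on vehicle arrays) and put on the log2 scale. Outlier spots (0 to 9 per array) were left out. Tested probes had at least 2 unflagged arrays per group and lay well above background on all unflagged arrays of 1 group or both. The 41992 such probes gave 32956 transcripts (brightest probe per gene). limma 3.58.1 (lmFit and eBayes, two-sided, R 4.3.3, statmod 1.5.0) compared the groups and was tested on simulated data. The number of arrays limits the precision.

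Members, substrate classes, partner lists and tests were chosen with earlier results of these data known. Members were named with array values when among the 10 largest rises or falls, brightest in a class, or isoforms of 1 substrate; values of some others were added after being seen. The family counts and medians include 1 member that is not reported here. Partner genes were named when past the threshold or among the 3 smallest p-values of their list. Alternatives were other scalings, normexp (offset 50, then quantile scaling, on the median signal, since these files give no mean signal), the authors' value table, other filters and probe rules, array weights, other variance estimates, slide and replicate terms, and each array left out. The gene table also holds Slc25a6, Slc25a12, Slc25a13, Slc25a26, Slc25a31, Slc25a36, Slc25a40, Slc25a48 and Slc25a52, not analysed here. Promoters of Slc25a30, Slc25a32, Slc25a37 and Slc25a46 were not used here.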

Additional observations from a re-analysis of the deposited data

How the results depend on the processing

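Over 22 alternatives (21 for Slc25a2, Slc25a47 and Ucp1, which drop out when probes must be detected on all arrays), 25 of 40 members kept the sign of their log2 fold change and 15 did not. The count of members past the threshold was 0 except for 2 with a trended and robust variance estimate (Slc25a24, Slc25a30) and 1 with normexp on the median signal followed by quantile scaling (Slc25a24), and it ran from 0 to 1 with 1 array left out, the 1 being Slc25a25 without TBBC 2. The family median of -0.05 was 0.005 (0.01 rounded) with slide as a fixed term and also on the shared slide alone, where the lone treated array was taken to vary as the vehicle arrays do; in the other alternatives it lay between -0.08 and -0.02. All transcripts past the threshold (175) numbered 1087 with the trended and robust estimate (621 higher, 466 lower), 653 with that normexp and quantile setting (307 higher, 346 lower; 239 with quantile scaling alone), 52 with no filter on dim probes, 48 with slide as a fixed term (43 higher, 5 lower) and 307 on the shared slide (263 higher, 44 lower), and from 6 to 274 with 1 array left out: 254, 58 and 274 without TBBC 1, 2 or 3, and 10, 6 and 14 without vehicle 1, 2 or 3. The replicate numbers did not pair the arrays, since same-numbered arrays deviated from their group means with correlations of -0.10, 0.03 and -0.07, and not every array correlated best with its own number. With the replicate number as a block, limma called 0 transcripts (5366 at an unadjusted p under 0.05) and 0 members (6 at an unadjusted p under 0.05), and the family median was -0.05. The cause of these shifts was not tested. Slc25a2, Slc25a47 and Ucp1 lay above background on only 2 TBBC arrays.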
